A study of Arabidopsis thaliana with 8 samples.

Results

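CHLM, AT1G74470 and SIRB are 3 nuclear genes of Arabidopsis thaliana whose products make chlorophyll and sirohaem in the plastid. They were taken as the probes whose platform annotation gives exactly 1 gene, that gene being one of the 3. Each had 1 such probe, so they are 3 of 692 single-gene probes and of 3318 probes tested. RNA came from the tic40 mutant in ecotype Columbia 0 (4 samples) and from wild-type plants (WT) of the same ecotype (4 samples), with 1 array per sample and numbers 1 to 4 in each genotype. TIC40 takes part in bringing proteins across the inner membrane of the chloroplast envelope, and this import is impaired in the mutant. The labels give no allele, tissue, age or growth condition, and nothing in them says whether separate plants were sampled. Every p-value below thus rests on the scatter of these 8 arrays, part of which may be technical.

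Chlorophyll, haem and sirohaem share the first steps of tetrapyrrole synthesis and then part. Sirohaem leaves the path early, when uroporphyrinogen III is methylated, oxidised and loaded with iron, and it serves as the cofactor of nitrite reductase and sulfite reductase. Further down, magnesium chelatase commits protoporphyrin IX to chlorophyll, and its product is methylated before the fifth ring is closed. At the end of the path chlorophyll receives a phytyl tail, which is made by reducing a geranylgeranyl chain. The enzymes of the chlorophyll and sirohaem branches are encoded in the nucleus and imported into the plastid.

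CHLM (AT4G25080) encodes the methyltransferase that acts on Mg-protoporphyrin IX right after magnesium chelatase. AT1G74470 encodes geranylgeranyl reductase, which makes the phytyl chain of chlorophyll and also serves the synthesis of tocopherols and phylloquinone. SIRB (AT1G50170) encodes the ferrochelatase that puts iron into the sirohaem ring. Averaged over 4 arrays per genotype, neither chlorophyll gene differed detectably between tic40 and WT. SIRB was at 0.62 of its WT level after quantile normalization (95% interval 0.47 to 0.82) and did not pass the test across all probes. None of the 3 genes was thus called, where limma called 5.36% of the 3318 probes lower and 2.32% higher in tic40 at an adjusted p under 0.05. With the sample number as a block in the fit, where same-numbered samples were found to deviate together, the 3 genes were not called either, and limma called 1 probe lower and 4 higher in place of 178 and 77. In RNA from many cells at once, fewer cells of a type and less RNA per cell cannot be told apart.

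The 4 WT arrays were not alike, which touches every value below. Correlated over the tested probes, WT samples 1 and 2 gave 0.947 and WT samples 3 and 4 gave 0.946, but an array of one pair with an array of the other gave only 0.707 to 0.722. Among tic40 arrays the range was 0.934 to 0.975. The tic40 arrays correlated with WT samples 1 and 2 at 0.874 to 0.907 and with WT samples 3 and 4 at 0.739 to 0.800. Each WT pair thus lay closer to tic40 than to the other WT pair, and a WT mean falls between unlike arrays. The log2 medians of the deposited intensities spanned 0.72, with WT samples 1 and 2 lowest. Levels are therefore given as quantile-normalised intensities unless stated, and the genotype differences of the 3 genes are also given without each WT pair. Quantile normalization compares the rank that a probe holds within its array, and the intensity scale is relative. What sets the WT pairs apart was not tested. None of the 3 genes was listed at 0 on any array.

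CHLM had normalised intensities of 0.577, 0.610, 0.791 and 0.677 in tic40 samples 1 to 4, against 0.724, 0.822, 0.522 and 0.458 in WT samples 1 to 4. The genotypes overlapped: WT samples 1 and 2 lay at the upper end with tic40 sample 3, and WT samples 3 and 4 lay below every tic40 sample. The means were 0.664 ± 0.0943 in tic40 and 0.631 ± 0.170 in WT (SD, n = 4 each). The log2 difference, tic40 minus WT, was 0.10 with SE 0.22 (limma adjusted p = 0.802), and its 95% interval of -0.41 to 0.61 allows folds of 0.754 to 1.53. An exact two-sided permutation test over the samples gave p = 0.657 (n = 4 each), where the smallest p that 4 against 4 can give is 0.0286.

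AT1G74470, the geranylgeranyl reductase gene, was almost level in tic40, with 1.32, 1.25, 1.35 and 1.34 in samples 1 to 4. The WT values were 2.04, 1.64, 0.972 and 0.881. All 4 tic40 samples lay in the gap between the WT pairs, below WT samples 1 and 2 and above WT samples 3 and 4. The coefficient of variation was 3.69% in tic40 and 40.0% in WT. The means of 1.31 ± 0.0484 in tic40 and 1.38 ± 0.552 in WT (SD, n = 4 each) gave a log2 difference of 0.015 with SE 0.28 (limma adjusted p = 0.979). The interval of -0.62 to 0.65 spans folds of 0.650 to 1.57, so the near-zero difference does not show equal levels. The exact permutation p was 0.971 (two-sided, n = 4 each).

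SIRB, the sirohaem ferrochelatase gene, had 0.160, 0.200, 0.174 and 0.171 in tic40 samples 1 to 4, against 0.237, 0.242, 0.343 and 0.331 in WT samples 1 to 4. Every tic40 value lay below every WT value, as for 13.5% of all tested probes. The nearest values were tic40 sample 2 and WT sample 1. The means were 0.176 ± 0.0171 in tic40 and 0.288 ± 0.0569 in WT (SD, n = 4 each). The log2 difference was -0.69 with SE 0.18 and a 95% interval of -1.10 to -0.29. Its unadjusted p was 0.00429 and its limma adjusted p 0.0533, at place 266 among the 3318 probes by p-value. Of all probes, 24.2% had an unadjusted p under 0.05. The exact permutation p was 0.0286 (two-sided, n = 4 each), the smallest that an unpaired test of 4 against 4 can give. It takes no account of the pairing by sample number. The adjusted p lay so near the threshold that a change in how zeros of other probes were handled moved it across. It was 0.0478 with 1 common floor for all arrays (5.39% of probes called lower) and 0.0481 among the 3083 probes above 0 on every array (5.48% called lower), at the same log2 difference. It was 0.102 with the replicate block. When each pair of arrays (1 and 2, or 3 and 4) of a genotype was averaged first, SIRB had a limma adjusted p of 0.885 and a 95% interval of -1.63 to 0.24. Its unadjusted limma p was 0.112 there. That fit sets 2 values against 2 and called 0 of the 3318 probes, so not passing in it does not set SIRB apart.

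**Figure D1:**
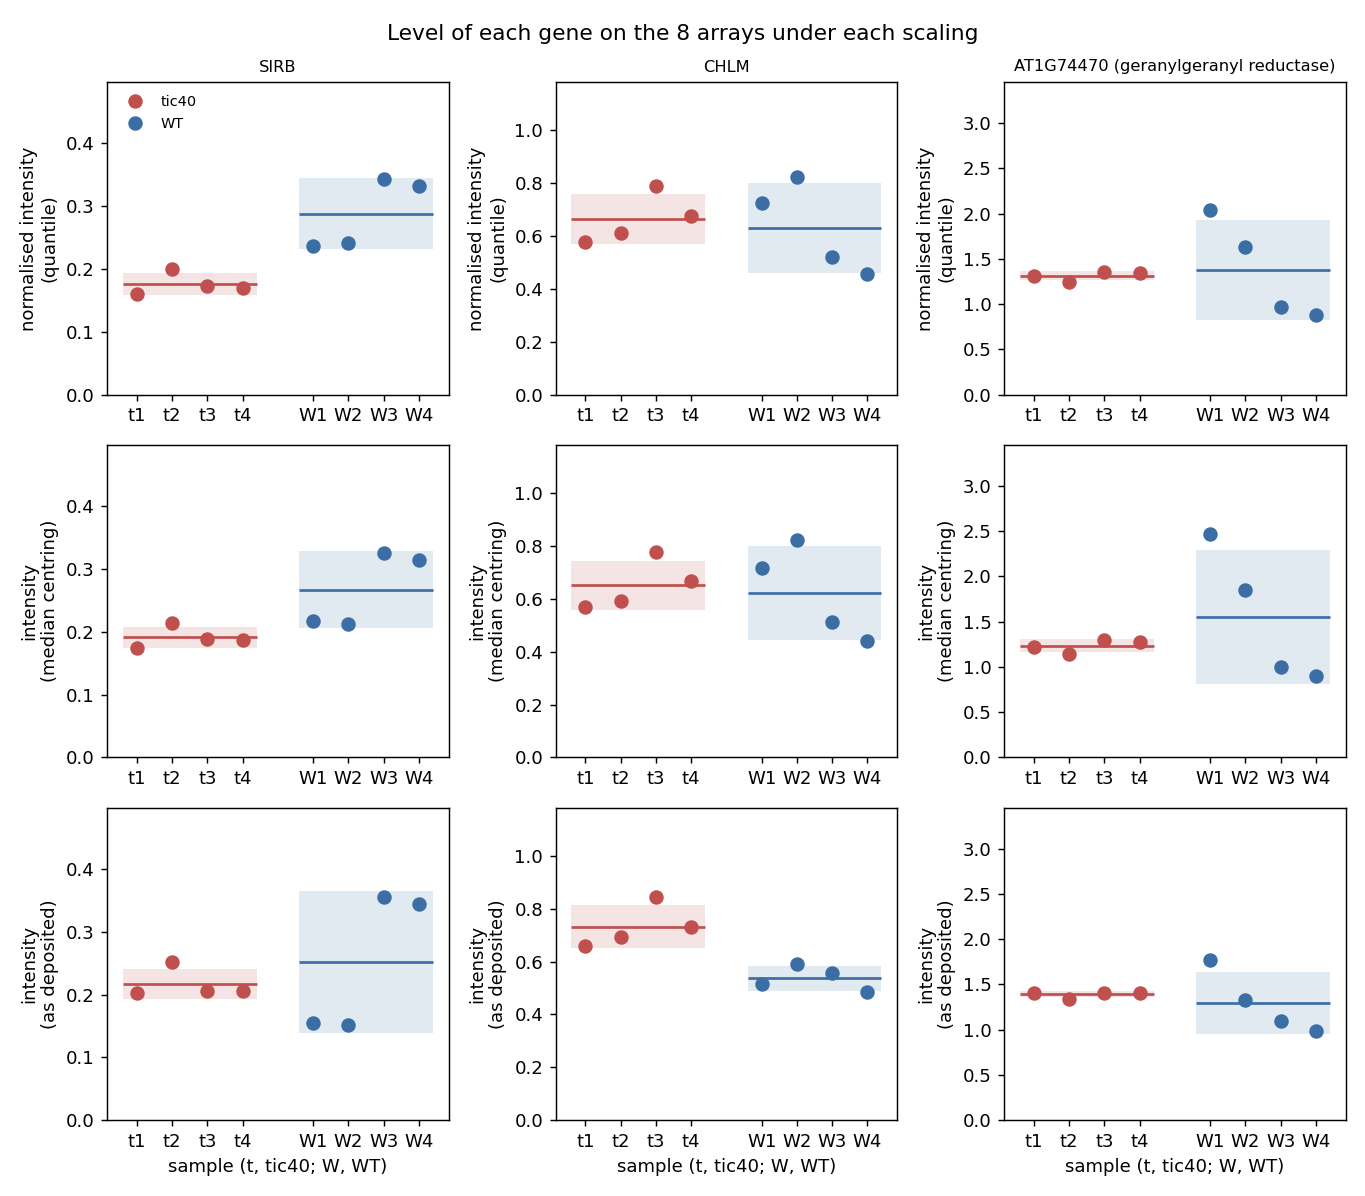
Intensity (relative units, linear axis from 0) of SIRB, CHLM and AT1G74470 on the 4 tic40 arrays and the 4 WT arrays, with quantile normalization, median centring and as deposited from top to bottom; lines are genotype means and bands ± 1 SD. With quantile normalization the tic40 values of AT1G74470 lie between the WT pairs, and all SIRB values of tic40 lie below those of WT, which is not so as deposited.

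Within all tested probes, the difference of SIRB stood at percentile 10.9, that of AT1G74470 at percentile 55.9 and that of CHLM at percentile 62.2. The median log2 difference over the 3 genes was 0.015, beside -0.061 over all 3318 probes. Of the 3, only SIRB thus lay towards an edge of the distribution, among the lower differences but not among the extreme ones.

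**Figure D2:**
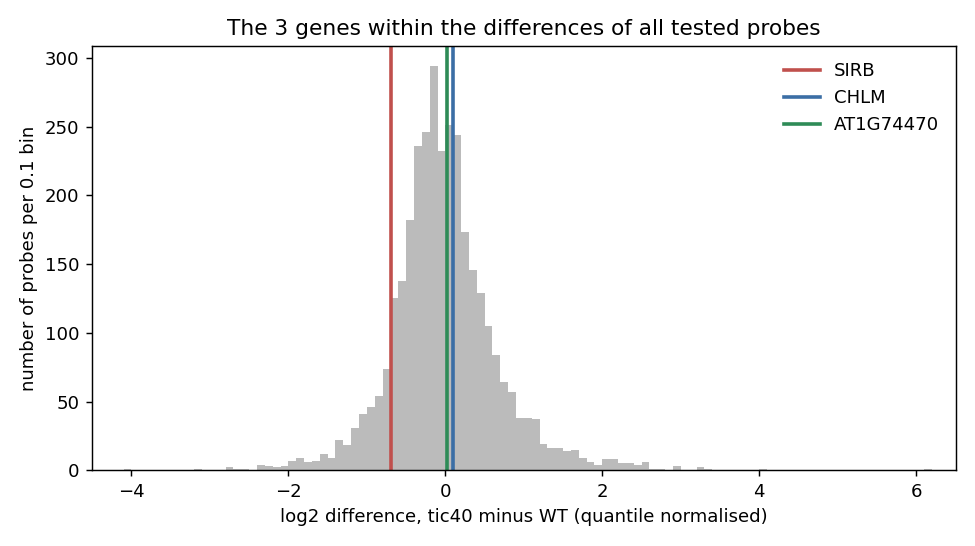
Histogram of the log2 difference, tic40 minus WT, of all 3318 tested probes after quantile normalization (number of probes per bin of 0.1), with vertical lines at SIRB (-0.69), AT1G74470 (0.015) and CHLM (0.10). The lines of both chlorophyll genes fall in the middle of the distribution.

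The scaling between arrays mattered most for SIRB. As deposited, its intensities were 0.202, 0.252, 0.205 and 0.206 in tic40 samples 1 to 4, against 0.155, 0.152, 0.355 and 0.344 in WT samples 1 to 4. On that scale all 4 tic40 samples lay between the WT pairs, above WT samples 1 and 2 and below WT samples 3 and 4. The log2 difference was then -0.11 (limma adjusted p = 0.880; 1.39% of probes called lower and 9.37% higher). With each array centred on its median it was -0.46 (limma adjusted p = 0.209; 4.79% of probes called lower and 2.35% higher), and 3 of 4 tic40 values lay below the lowest WT value. By rank within its own array, which a factor common to the array does not change, SIRB stood at percentile 16.0 to 19.7 in tic40, 23.4 and 23.9 in WT samples 1 and 2, and 33.8 and 32.6 in WT samples 3 and 4. Its rank was therefore lower in all tic40 samples, while its deposited intensity was not.

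CHLM depended on the scaling too. As deposited, it had 0.660, 0.694, 0.844 and 0.732 in tic40 samples 1 to 4, against 0.514, 0.592, 0.558 and 0.485 in WT samples 1 to 4. All tic40 values then lay above all WT values, which 22.5% of probes did on that scale. The log2 difference as deposited was 0.45 (limma adjusted p = 0.114; exact permutation p = 0.0286, n = 4 each), where the median of all probes was 0.32. With median centring it was 0.10 (limma adjusted p = 0.834), as after quantile normalization. For AT1G74470 the log2 difference was 0.14 as deposited (limma adjusted p = 0.746) and -0.21 with median centring (limma adjusted p = 0.734), so that its sign was not settled.

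Each genotype difference was also fitted without one of the WT pairs. Without WT samples 1 and 2, SIRB had a log2 difference of -0.94 (limma adjusted p = 0.00137) and AT1G74470 of 0.50 (limma adjusted p = 0.00545), and both passed, where 30.7% of all probes were called lower and 24.5% higher. CHLM had 0.43 and did not pass (limma adjusted p = 0.0563). Without WT samples 3 and 4, SIRB had -0.45 (limma adjusted p = 0.0350) and AT1G74470 had -0.48 (limma adjusted p = 0.0307), where 15.5% of probes were called lower and 14.2% higher. CHLM had -0.23 there (limma adjusted p = 0.312). SIRB was thus lower in tic40 than in either WT pair after quantile normalization, whereas AT1G74470 was higher than in one pair and lower than in the other. Calls were frequent in both fits, and a call there is close to the background of the array.

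Fits of same-numbered samples, 2 arrays against 2, measure only the spread within such pairs. In samples 3 and 4 all 3 genes passed: SIRB at -0.97 (limma adjusted p = 0.00329), CHLM at 0.58 (limma adjusted p = 0.0271) and AT1G74470 at 0.54 (limma adjusted p = 0.0124). There 34.9% of probes were called lower and 25.3% higher, so these calls do not set the 3 genes apart. As deposited the values were -0.77 for SIRB, 0.60 for CHLM and 0.44 for AT1G74470. Median centring gave -0.77, 0.60 and 0.44 as well, and each of these passed (limma adjusted p of 0.00399 to 0.0246; 33.9% to 34.1% of probes called lower and 26.9% to 27.1% higher). In samples 3 and 4, SIRB was lower and both chlorophyll genes were higher in tic40 under all 3 scalings. The deposited log2 medians of these arrays were already close, at -0.739 and -0.725 in tic40 and -0.735 and -0.726 in WT. Median centring could thus change little there, and the 3 scalings are not separate checks.

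In samples 1 and 2 none of the 3 passed after quantile normalization, where 17% of probes were called lower and 13.5% higher. SIRB had -0.42 (limma adjusted p = 0.108), CHLM -0.38 (limma adjusted p = 0.0745) and AT1G74470 -0.51 (limma adjusted p = 0.0739). As deposited, SIRB was higher in tic40 at 0.55 (limma adjusted p = 0.0400), along with 59.7% of all probes, whose median difference was 0.70. CHLM had 0.29 (limma adjusted p = 0.0930) and AT1G74470 had -0.16 (limma adjusted p = 0.472) on that scale. Median centring gave -0.15 for SIRB (limma adjusted p = 0.463), -0.41 for CHLM (limma adjusted p = 0.0721) and -0.86 for AT1G74470, the last of which passed (limma adjusted p = 0.0438; 17.9% of probes called lower). CHLM and AT1G74470 thus had opposite signs in samples 1 and 2 and in samples 3 and 4 after quantile normalization and median centring. Whether the genotype difference itself differs between these pairs was not tested.

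**Figure D3:**
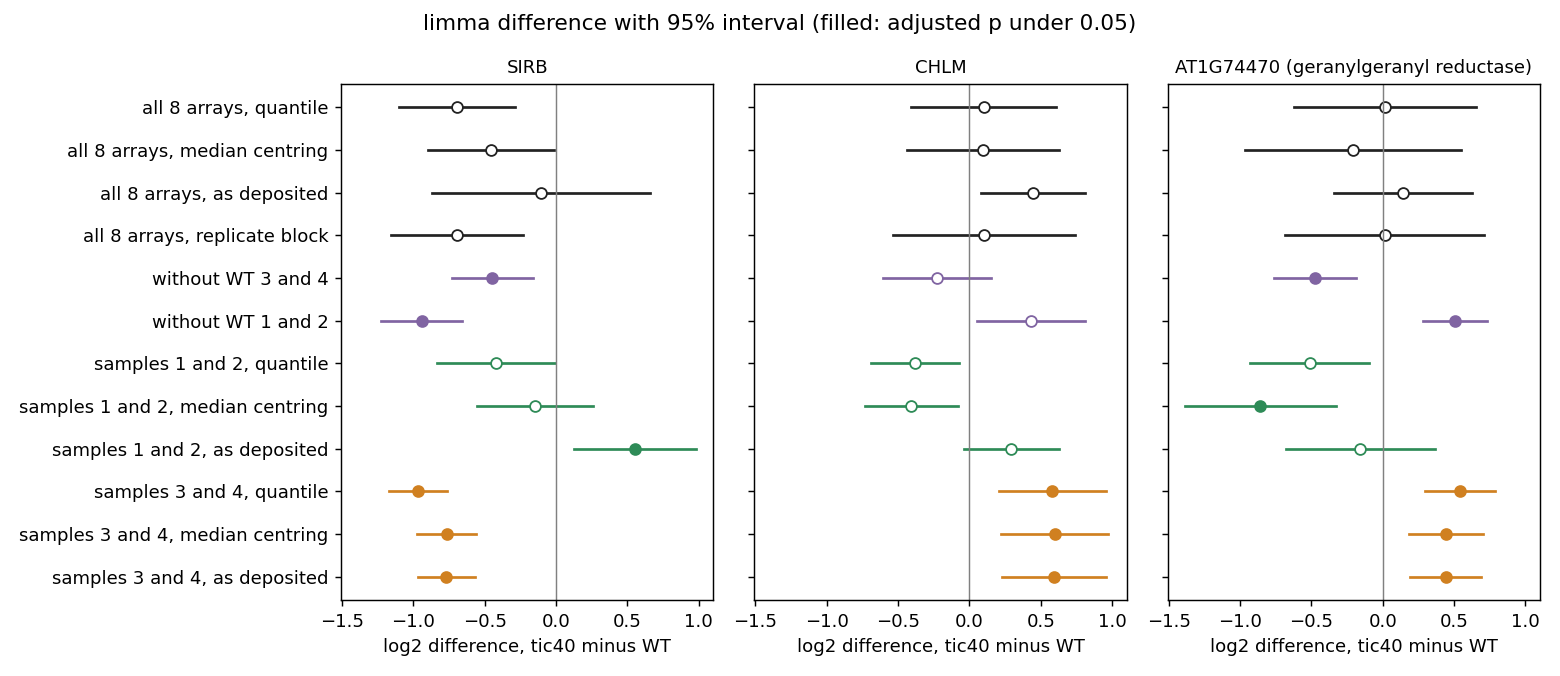
limma log2 difference, tic40 minus WT, with its 95% interval for SIRB, CHLM and AT1G74470, over all 8 arrays, without each WT pair, and within same-numbered samples under each scaling; filled points have an adjusted p under 0.05. The rows of samples 3 and 4 keep their sign in every scaling. They run from -0.97 to -0.77 for SIRB and from 0.44 to 0.60 for the other genes. The deposited medians of these arrays were already close, so median centring changes little there. The rows of samples 1 and 2 shift with the scaling.

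Much of the WT spread of the 3 genes lay between the WT pairs. The log2 level of WT samples 3 and 4 minus that of WT samples 1 and 2 was -0.66 for CHLM, -0.98 for AT1G74470 and 0.50 for SIRB. The size of this shift had a median of 0.64 over the 3083 probes above 0 on all arrays, and 50.8%, 69.3% and 39.9% of these probes had a smaller shift than CHLM, AT1G74470 and SIRB. After quantile normalization the shifts of the 3 genes were therefore of a common size on these arrays. As deposited they were -0.086 for CHLM, -0.56 for AT1G74470 and 1.18 for SIRB, where all 3083 probes had a median shift of 0.64 and a median size of 0.94. In tic40, samples 3 and 4 minus samples 1 and 2 gave 0.30 for CHLM, 0.074 for AT1G74470 and -0.056 for SIRB, where the median size was 0.23. Between these tic40 pairs the mean levels of AT1G74470 and SIRB thus shifted little, and that of CHLM more. Over the 4 tic40 arrays the coefficient of variation was 3.69% for AT1G74470, 9.69% for SIRB and 14.2% for CHLM.

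Ratios of 2 genes within an array were compared between genotypes to ask whether the genes differed unequally. SIRB over CHLM had a mean log2 ratio of -1.91 in tic40 (-2.19 to -1.61) and -1.11 in WT (-1.77 to -0.47), a difference of -0.80 (exact permutation p = 0.0857, n = 4 each; adjusted over the 3 pairs of genes, p = 0.257). For SIRB over AT1G74470 the difference of mean log2 ratios was -0.71 (exact permutation p = 0.257, adjusted p = 0.386). CHLM over AT1G74470 differed by 0.087 (exact permutation p = 0.686, adjusted p = 0.686), with -0.99 in tic40 and -1.08 in WT. None of the 3 pairs passed, and the values with the table as deposited were -0.55, -0.25 and 0.30 (adjusted p of 0.429 to 0.600). With 4 arrays per genotype the smallest exact permutation p is 0.0286, and 1 pair alone at that p could not pass once adjusted over the 3 pairs. Not passing therefore does not show that the genes differed equally. The SIRB to CHLM ratio differed by -0.040 in samples 1 and 2 and by -1.55 in samples 3 and 4, so the pooled value came from samples 3 and 4. For SIRB over AT1G74470 the values were 0.095 and -1.51, of opposite sign. As deposited both ratios changed sign between samples 1 and 2 and samples 3 and 4. SIRB over CHLM then had 0.26 and -1.36, and SIRB over AT1G74470 had 0.71 and -1.21.

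Of 73 listed genes of tetrapyrrole synthesis and breakdown, plastid isoprenoid supply and their regulators, 4 were measured by a single-gene probe, and 0 rose and 0 fell, which at 2.32% of all probes called higher and 5.36% lower says little for 4 probes. The fourth, beside the 3 genes above, was HEMA3, one of the genes for glutamyl-tRNA reductase, the first enzyme committed to tetrapyrroles. HEMA3 had 1.55 ± 0.0535 in tic40 and 1.28 ± 0.210 in WT (SD, n = 4 each; log2 difference 0.29, limma adjusted p = 0.280). Its log2 difference was 0.49 without WT samples 3 and 4, where it passed (limma adjusted p = 0.0101) and 14.2% of all probes were called higher. The difference of HEMA3 was 0.084 without WT samples 1 and 2 (limma adjusted p = 0.420). Another 6 listed genes are named only on probes that carry several genes and were not used. Single-gene probes measured 0 of the 7 genes of the haem and bilin branch and 0 of the 10 genes of chlorophyll breakdown.

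The labels name no tissue, and 12 markers of green tissue were listed as a check. Of these, 4 were measured, all above 0 on every array, with 1 higher in tic40, where 2.32% of all probes were called higher, and 3 that did not pass. PSBW, a subunit of photosystem II, had 24.0 ± 1.42 in tic40 and 17.0 ± 0.953 in WT (log2 difference 0.50, limma adjusted p = 0.0479). That call was lost with the replicate block (limma adjusted p = 0.0923), as deposited (0.39, limma adjusted p = 0.355) and with median centring (0.042, limma adjusted p = 0.961). PSBW passed without WT samples 1 and 2 (0.57, limma adjusted p = 0.00430), where 24.5% of all probes were called higher. It also passed without WT samples 3 and 4 (0.43, limma adjusted p = 0.0217), where 14.2% were called higher. LHB1B2, a light-harvesting antenna protein, had 2.65 ± 0.190 in tic40 and 7.40 ± 3.71 in WT (-1.33, limma adjusted p = 0.0614). The genes of the Calvin cycle enzymes PRK and SBPASE had log2 differences of -0.90 (limma adjusted p = 0.137) and 0.21 (limma adjusted p = 0.360). PRK passed without WT samples 3 and 4 (-1.45, limma adjusted p = 0.00202) but not without WT samples 1 and 2. SBPASE passed in neither fit. The part of these markers in the values of the 3 genes was not tested.

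The profiles over the 8 arrays were compared among 612 single-gene probes above 0 on every array, by Pearson's r of the quantile-normalised log2 level. The arrays fall into the tic40 samples and the WT pairs, so r mainly reflects where a gene stands in these blocks, and it is given as a description. CHLM and AT1G74470 had r = 0.824 with each other, and 54 other genes were more like AT1G74470 than CHLM was. SIRB had r = -0.525 with CHLM and -0.459 with AT1G74470. With median centring the 3 values were 0.772, -0.674 and -0.439. As deposited, CHLM and AT1G74470 had r = 0.318, SIRB and CHLM -0.243, and SIRB and AT1G74470 -0.852, so the likeness of the chlorophyll genes depended on the scaling.

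Most like SIRB were AT1G15140 (r = 0.985), AT2G04540, which encodes a mitochondrial ketoacyl synthase (r = 0.972), and UBA1A, which encodes an RNA-binding protein (r = 0.969). AT1G15140 passed the test with a log2 difference of -0.74 (limma adjusted p = 0.0264), and the other two had -0.56 (limma adjusted p = 0.0785) and -1.04 (limma adjusted p = 0.0603). Least like SIRB were AT3G17950 (r = -0.976), AT3G61540 (r = -0.952) and AT2G20920 (r = -0.951). AT3G17950 passed in the other direction, with a log2 difference of 1.17 (limma adjusted p = 0.0247), and the other two had 0.42 (limma adjusted p = 0.137) and 0.75 (limma adjusted p = 0.0705). Likeness to SIRB over the same arrays favours such differences, so they are no separate evidence.

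CHLM was most like AT5G33390 (r = 0.956), AT4G29120 (r = 0.951) and AT5G39980 (r = 0.939). Its profile was least like those of CBL, the cystathionine beta-lyase of methionine synthesis (r = -0.931), PPDK, which encodes pyruvate orthophosphate dikinase (r = -0.923), and AT2G27290 (r = -0.921). For AT1G74470 the most like were AT3G07790 (r = 0.974), AT3G50270 (r = 0.971) and AT5G19050 (r = 0.965). Least like it were AT1G62150 (r = -0.990), AT1G02020 (r = -0.981) and AT2G48090 (r = -0.966). These last genes had their WT means the other way round, as with AT1G62150 at 0.805 in tic40, 0.602 in WT samples 1 and 2 and 1.20 in WT samples 3 and 4.

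**Figure D4:**
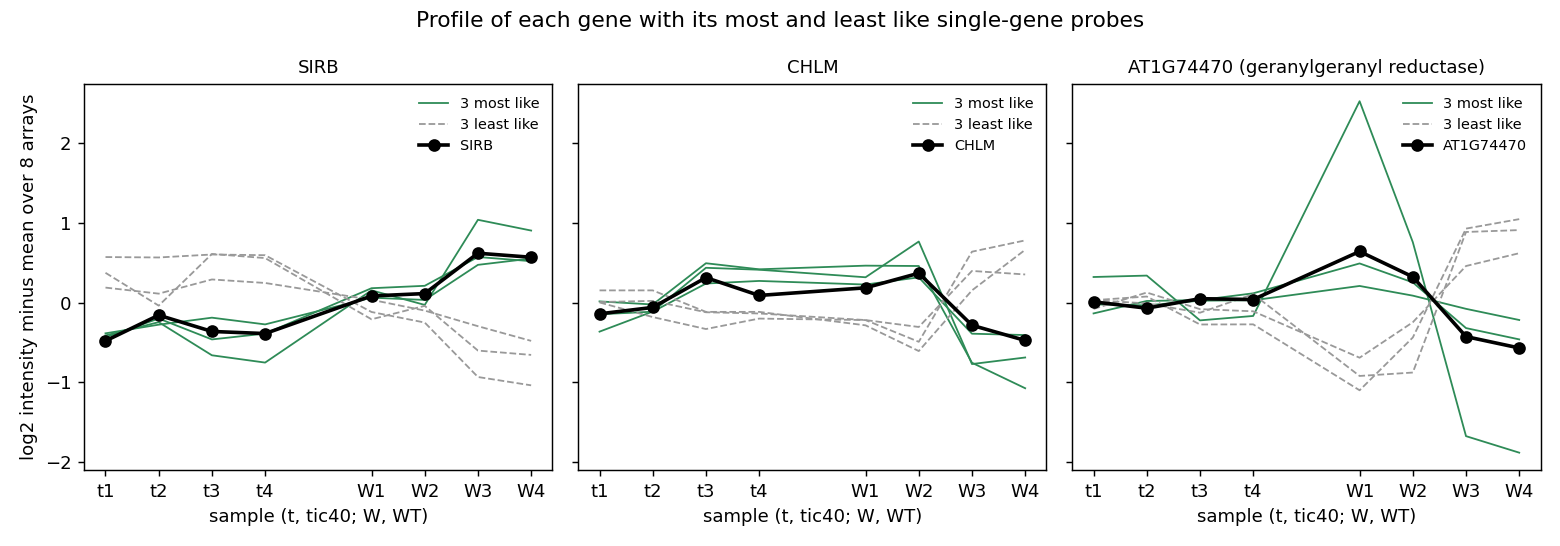
Log2 intensity minus the mean over the 8 arrays, for SIRB, CHLM and AT1G74470 (black), the 3 single-gene probes most like each (green) and the 3 least like (grey dashes), on tic40 samples 1 to 4 and WT samples 1 to 4. The green profiles of SIRB are low in tic40 and highest in WT samples 3 and 4, while those of CHLM and AT1G74470 drop in WT samples 3 and 4.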

How the data were processed

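The deposited table holds 1 intensity per probe and array for 3439 probes on 8 arrays; the values are linear and never negative, and how the authors scanned, corrected or scaled them is not given in the sources used here. Arrays have no sequencing depth, and their number limits the precision. Of these, 121 probes were at 0 on each array and were not tested. Intensities were quantile normalised between arrays, an exact zero was set to a floor at percentile 1 of its array's values above 0, and log2 values were fitted with limma 3.58.1 in R 4.3.3, genotype as the only term, with Benjamini-Hochberg adjustment over 3318 probes. The limma step was tried on data simulated with independent noise, without a split between WT pairs or a pairing by number. That trial cannot show how the test behaves where arrays have these features. Probes were named from the platform annotation, and 690 of 692 single-gene names matched the TAIR10.1 gene table. Single values were tested by exact permutation. Likeness was ranked as the 3 highest and 3 lowest r per gene. The genes, lists and tests were chosen with earlier results of these data known, and fits combining a scaling with a pair of samples were added after seeing the values.

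Same-numbered tic40 and WT samples deviated together from their genotype means, at r = 0.306, 0.310, 0.261 and 0.254 for numbers 1 to 4. When the numbers did not match, the highest r was 0.0497, 0.0295, 0.12 and 0.099 for numbers 1 to 4. Each of these lay below the same-numbered r. As every same-numbered r was over 0.1, the numbers were read as pairing the samples, though the labels do not say what they mark. The 0.12 of number 3 also passed 0.1, so that limit alone does not establish the pairing. The values reported come from the fit without this pairing, and the exact tests are unpaired too. The fit with the replicate block is an alternative, which changed no call of the 3 genes.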

Additional observations from a re-analysis of the deposited data

How the results depend on the processing

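With a replicate block for the pairing by number, the log2 differences were unchanged at -0.69 for SIRB (limma adjusted p = 0.102), 0.10 for CHLM (0.808) and 0.015 for AT1G74470 (0.976), and the block gave 1 probe called lower and 4 higher, against 178 and 77 without it. SIRB kept its sign over all 8 arrays in the 3 scalings. Leaving out 1 sample at a time gave -0.78 to -0.60 for SIRB (adjusted p of 0.0502 to 0.147), -0.040 to 0.24 for CHLM, negative without WT sample 4, and -0.17 to 0.23 for AT1G74470, negative without WT sample 3 (-0.13) or 4. With 1 common floor, or only probes above 0 on all arrays, SIRB passed at -0.69, where 5.39% and 5.48% of probes were called lower. Without WT samples 1 and 2, SIRB had -0.94 and AT1G74470 0.50, and both passed, where 30.7% of probes were called lower and 24.5% higher. Without WT samples 3 and 4, SIRB passed at -0.45, while CHLM (-0.23) and AT1G74470 (-0.48, which passed) turned negative. In that fit 15.5% of probes were called lower and 14.2% higher. Median centring gave -0.21 for AT1G74470.

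In samples 3 and 4 alone the values with quantile normalization, as deposited and with median centring were -0.97, -0.77 and -0.77 for SIRB, 0.58, 0.60 and 0.60 for CHLM, and 0.54, 0.44 and 0.44 for AT1G74470, all past the threshold. Those fits called 33.9% to 34.9% of all probes lower and 25.3% to 27.1% higher. In samples 1 and 2 alone AT1G74470 had -0.51, -0.16 and -0.86, CHLM had -0.38 with quantile normalization and -0.41 with median centring, and SIRB had 0.55 as deposited. The difference between the log2 differences of CHLM and AT1G74470 ranged over -0.051 to 0.15 with 1 sample left out, that of SIRB and CHLM over -1.01 to -0.58, and that of SIRB and AT1G74470 over -1.01 to -0.45.

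The number of probes called lower and higher was 46 and 311 as deposited, 1019 and 814 without WT samples 1 and 2, 515 and 470 without WT samples 3 and 4, 564 and 448 in samples 1 and 2 alone, 1159 and 841 in samples 3 and 4 alone, and 33 to 165 and 10 to 75 with 1 sample left out. With the pairs averaged within each genotype limma called 0 and 0 probes, while 184 reached an unadjusted p under 0.05. The cause of these shifts was not tested.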
